A study of Sus scrofa with 13 samples.

Results

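The small heat shock proteins of the heart were followed here in infarcted pig myocardium, as 7 genes: HSPB1, HSPB2, HSPB3, HSPB6, HSPB7, HSPB8 and CRYAB. Their members were found by symbol in the platform annotation. All 7 genes had a probe set, 9 probe sets in all, out of 6765 genes with a single symbol and 23999 probe sets of genes on the array. HSPB6 and CRYAB had 2 probe sets each and the other genes 1. Each gene is described by the probe set with the higher mean, and the second probe sets of HSPB6 and CRYAB are given apart.

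Small heat shock proteins are chaperones that bind unfolding proteins without using ATP and hold them in a state from which other chaperones can refold them or hand them over for degradation. They share a conserved alpha-crystallin domain and assemble into dimers and larger oligomers. Heart muscle is rich in them, and several bind the desmin network, the actin filaments or the filamin of the Z-disc, which carry force between contractile units.

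The animals, female miniswine of the Sinclair breed, were 3 months old when diagonal branches of their left anterior descending artery were tied off for good. Of 13 animals, 7 had then been injected with 50000000 stem cells (called MPCs in the labels, which do not expand the term) in 2 ml saline, over 5 sites around the infarct, and 6 with 2 ml saline over 5 sites. All animals of both groups carried the infarct, so no uninjured heart is among the groups. Drill biopsies were taken after 4 months, and total RNA from each animal was hybridised to 1 porcine expression array. The position of each biopsy relative to the scar and whether injected cells were still present are not given in the labels.

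Values are log2 intensities, so a difference of 1 is a factor of 2, and every difference is stem cells minus saline. The animal was the replicate. The 13 arrays had median intensities of 13.5 to 14 on the linear scale and any 2 of them had a Pearson r of 0.936 to 0.986 over the 14399 tested probe sets. Their number limits the precision: the median 95% interval of a difference reached 0.383 to either side. The tissue label was checked against 11 cardiomyocyte markers. Of these, 10 were bright, with means over the arrays of 10.77 or more, among them MYH7, the slow myosin heavy chain, at 14.61 after saline and 14.68 after stem cells. The exception was TNNI1, slow skeletal troponin I, which ran from 3.19 to 10.20 between animals. An animal at each end stood apart for the member genes. Stem cells replicate 6 was among the 2 lowest arrays for 7 of 7 members and the lowest for 5 of them, against 19.5% and 10.6% of all probe sets tested. It was also the highest array for 19.3% of all probe sets tested, the largest such share of the 13. At the other end, saline replicate 6 was among the 2 highest arrays for 7 of 7 members, against 16.0% of all probe sets tested. The main results are therefore given with and without stem cells replicate 6. Biopsies mix cell types, and fewer cells of a type cannot be told apart from less RNA per cell.

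All 7 genes had a lower mean after stem cells than after saline, and none of the differences passed the test. The log2 differences ran from -0.83 for HSPB6 to -0.16 for HSPB3, with a median of -0.31, beside a median of -0.05 over the 5196 genes tested. A negative difference was found in 59.4% of those genes and in 47.2% of all tested probe sets. At an unadjusted p under 0.05 (limma), 2 of the 7 members were lower and 0 higher, beside 8.95% of genes (5.15% of probe sets) lower and 2.91% of genes (5.4% of probe sets) higher. With Benjamini-Hochberg adjustment over all 14399 probe sets, 0 members passed at 0.05, and 0% of all probe sets did, while 742 probe sets were lower and 777 higher at an unadjusted p under 0.05. Between the groups, 0 of the 9 member probe sets were free of overlap, beside 0.278% of all probe sets. Without stem cells replicate 6, 6 of 7 differences were negative, the median was -0.18 and 2 members were lower at an unadjusted p under 0.05. No share over all genes is given for counts without that animal, here or below. Such counts are descriptions and cannot be read as more or fewer than among all genes.

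**Figure D1:**
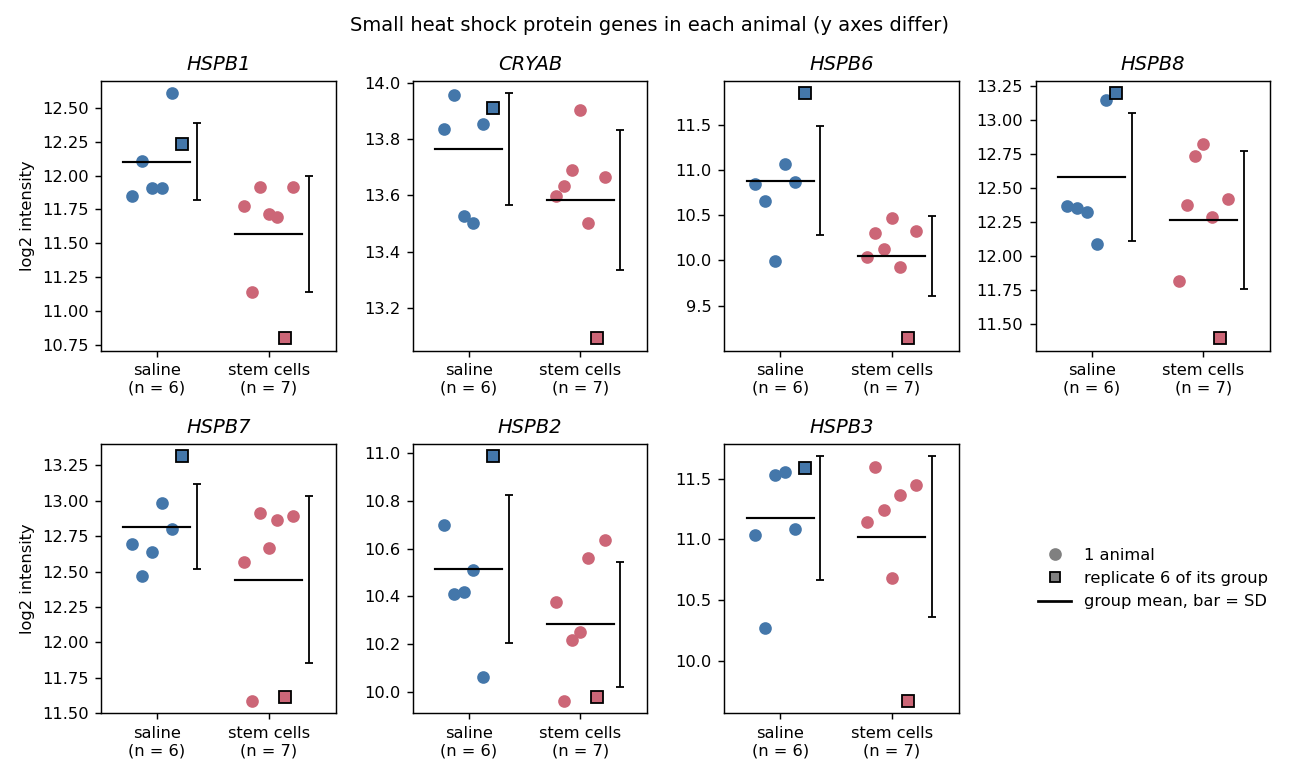
Log2 intensity (y axis, scale differs between panels) of the 7 small heat shock protein genes in each of 6 saline and 7 stem cell animals, with the group mean as a line and the SD as a bar. Squares mark replicate 6 of each group: the stem cell square is the lowest point for 5 genes and among the 2 lowest for all 7, and the saline square is among the 2 highest for all 7.

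HSPB6, also called Hsp20, is a target of cyclic nucleotide-dependent kinases and is known for protecting cardiomyocytes and relaxing smooth muscle. Its intensity after saline had a lowest value of 9.99, a median of 10.86 and a highest of 11.85, and after stem cells a lowest of 9.14, a median of 10.13 and a highest of 10.47. Each of the 7 stem cell animals was under the saline mean, and 5 of 6 saline animals were above every stem cell animal, with saline replicate 3 inside the stem cell range. The means were 10.88 ± 0.60 (SD, n = 6) and 10.05 ± 0.44 (SD, n = 7). The difference was -0.83 ± 0.26 (SE), a level after stem cells of 56.1% of that after saline with a 95% interval of 38.2% to 82.4%. Its limma p was 0.00587 unadjusted and 0.396 adjusted over all probe sets. Leaving out stem cells replicate 6 gave -0.68 ± 0.23 (SE, limma adjusted p of 0.679), and leaving out saline replicate 6 gave -0.64 ± 0.23.

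The second HSPB6 probe set gave a value nearer 0. It was dimmer, between 3.78 and 6.51 over the 13 arrays, and its difference was -0.19 ± 0.42 (SE, limma adjusted p of 0.891). It was 0.01 once stem cells replicate 6 was left out and 0.08 once saline replicate 6 was. Over the 13 arrays the pair of HSPB6 probe sets had a Pearson r of 0.57 and a Spearman rho of 0.38.

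HSPB1, known as Hsp27, forms large oligomers, is phosphorylated under stress and binds actin filaments. After saline it ran from 11.85 over a median of 12.01 to 12.61, and after stem cells from 10.80 over 11.72 to 11.92. Here too 7 of 7 stem cell animals were under the saline mean, and 5 of 7 were under every saline animal, so that the groups overlapped only between 11.85 and 11.92. The means were 12.10 ± 0.29 (SD, n = 6) and 11.57 ± 0.43 (SD, n = 7), a difference of -0.54 ± 0.19 (SE). This put stem cell animals at 68.9% of saline, with a 95% interval of 52.1% to 91.1%, and a limma p of 0.0124 unadjusted and 0.42 adjusted. Without stem cells replicate 6 the difference was -0.41 ± 0.16 (SE, limma adjusted p of 0.684).

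CRYAB, alpha-B-crystallin, is a chaperone of desmin whose mutations cause a cardiomyopathy with desmin aggregates. It varied least among the 7 genes, over 0.865 log2 units in all. After saline it lay at 13.50, 13.84 and 13.96 (lowest, median, highest) and after stem cells at 13.09, 13.63 and 13.90. Saline replicates 2 and 6 were above every stem cell animal and stem cells replicate 6 under every saline animal, and the other 10 shared 1 range. The difference was -0.18 ± 0.12 (SE), or 88.2% of saline with an interval of 73.9% to 105% (limma adjusted p of 0.599), and -0.0991 without that animal.

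The second CRYAB probe set pointed the other way, at 1.03 ± 0.64 (SE, limma adjusted p of 0.58). It was dim, from 2.89 to 5.35 on 12 of 13 arrays, where the brightest value of 17 control probe sets with no porcine target was 2.83. Stem cells replicate 7 alone reached 8.26, and without that animal the difference was 0.46. Between the main and the second CRYAB probe set the Pearson r over the arrays was -0.18 and the Spearman rho -0.33. The name of the second one places it in the same transcript cluster as the HSPB2 probe set, and the spans of CRYAB and HSPB2 overlap in the RefSeq annotation of the pig assembly Sscrofa11.1, so which of the genes it reads is uncertain.

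HSPB8 works with the cochaperone BAG3 to deliver damaged filamin and other clients to autophagy. It ran from 12.08 over 12.36 to 13.19 after saline and from 11.39 over 12.37 to 12.82 after stem cells, so the medians nearly coincided. Saline replicates 5 and 6, at 13.14 and 13.19, were above every stem cell animal, and stem cells replicates 1 and 6, at 11.82 and 11.39, below every saline animal. The difference was -0.31 ± 0.24 (SE, limma adjusted p of 0.64), and -0.17 once stem cells replicate 6 and -0.19 once saline replicate 6 was left out.

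HSPB7, a heart-rich member that binds filamin C, ran from 12.47 over 12.75 to 13.32 after saline and from 11.58 over 12.67 to 12.91 after stem cells. Stem cells replicates 2 and 6, at 11.58 and 11.61, lay well under the other 11 arrays. The difference was -0.37 ± 0.24 (SE), or 77.1% of saline with an interval of 54.5% to 109% (limma adjusted p of 0.581). Leaving out replicate 6 or replicate 2 of the stem cell group gave -0.24 and -0.23. HSPB7 was set against a measure of RNA integrity, the mean log2 ratio of 3' to 5' control probe sets, which rises as RNA degrades, and the relation did not pass. That ratio was highest, at 2.39, in stem cells replicate 2 and averaged 1.53 ± 0.32 (SD, n = 6) in saline and 1.41 ± 0.52 (SD, n = 7) in stem cell animals. The controls behind the mean differed. In saline and stem cell animals actin was at 3.13 ± 0.74 and 2.89 ± 1.11 (SD). GAPDH was at 0.52 ± 0.33 and 0.53 ± 0.36, and EF1A at 0.95 ± 0.10 and 0.81 ± 0.11. The group differences in these ratios were not tested. The mean ratio had a Pearson r of -0.62 and a Spearman rho of -0.73 with HSPB7 (adjusted permutation p of 0.0969 and 0.0839 over 42 relations). The r was -0.69 without the 2 animals farthest from the HSPB7 median. Without stem cells replicate 6 both r and rho were -0.83. The other members had r with the ratio from -0.44 for HSPB2 to 0.16 for CRYAB, and none passed. Without stem cells replicate 6 these ran from -0.51 to 0.17. With the ratio as a covariate the HSPB7 difference was -0.47 ± 0.17 (SE, limma p of 0.0151 unadjusted and 0.285 adjusted).

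HSPB2 and HSPB3 form a complex with each other in muscle, and HSPB2 also binds the myotonic dystrophy kinase. HSPB2 ran from 10.06 over 10.47 to 10.99 after saline and from 9.96 over 10.25 to 10.63 after stem cells, a difference of -0.23 ± 0.16 (SE, limma adjusted p of 0.611). It was -0.18 without replicate 6 of the stem cell group and -0.14 without that of the saline group. HSPB3 ran from 10.26 over 11.31 to 11.59 after saline and from 9.67 over 11.24 to 11.59 after stem cells. Stem cells replicate 6 lay under every saline animal, and saline replicate 2, at 10.26, under every other stem cell animal, while the highest values of the groups coincided. The HSPB3 difference was -0.16 ± 0.29 (SE, limma adjusted p of 0.866) and turned to 0.07 without stem cells replicate 6. At 89.7% of saline, with a 95% interval of 58.1% to 138%, these arrays bounded the HSPB3 ratio only loosely.

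**Figure D2:**
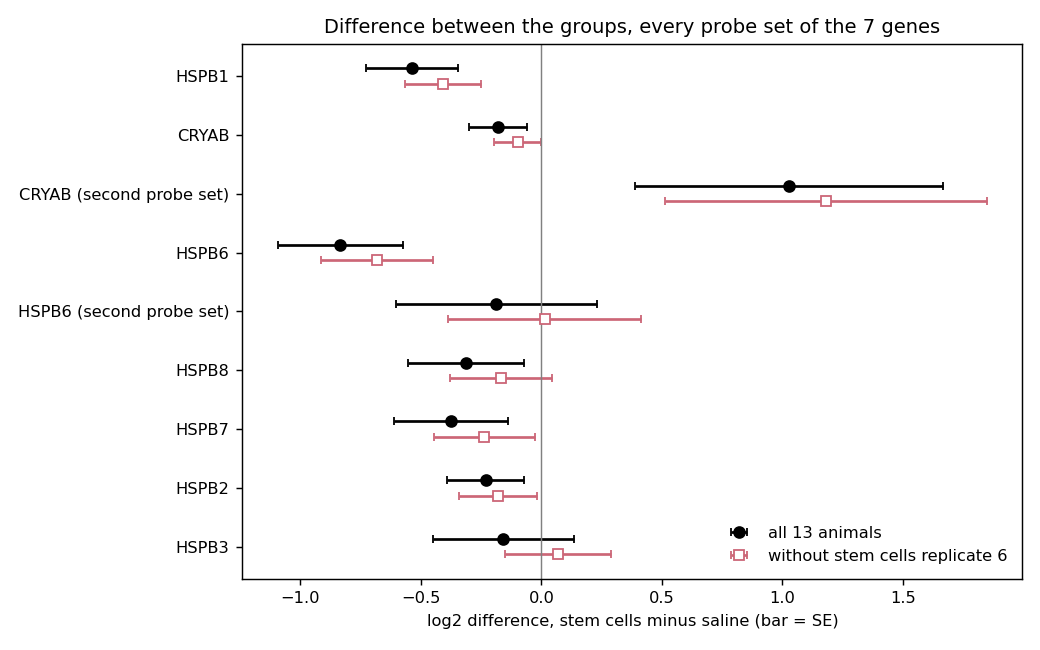
Log2 difference between stem cell and saline animals (x axis, points with SE bars) for the 9 probe sets of the 7 genes, with all 13 animals (filled circles) and without stem cells replicate 6 (open squares). HSPB6 and HSPB1 lie farthest below 0, and HSPB3 crosses to 0.07 without that animal.

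The other question posed by these genes was whether they varied together from animal to animal. Over the 13 arrays all 21 pairs of members had a positive Pearson r, from 0.24 for HSPB3 with CRYAB to 0.81 for HSPB1 with HSPB7, with a median of 0.59. Among all pairs of the 14399 probe sets the median was 0.009, and 5.10% of pairs reached the members' median or more. By Pearson's r 8 of 21 pairs passed at an adjusted permutation p under 0.05, adjusted over the 21 pairs, and by Spearman's rho 0 passed. The median rho was 0.39.

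HSPB8 and CRYAB were the pair with the highest rank correlation. They had r = 0.80 (permutation p of 0.00115, adjusted 0.02) and rho = 0.77 (permutation p of 0.00271, adjusted 0.0569). HSPB1 and HSPB7 had r = 0.81 (permutation p of 0.00255, adjusted 0.02) and rho = 0.55 (0.0533, adjusted 0.14). Without the 2 animals farthest from the median of the first gene named, taking HSPB8 first, r was 0.57 for HSPB8 with CRYAB. For HSPB1 with HSPB7 it was 0.25 and the relation rested on stem cells replicates 2 and 6. HSPB2 with HSPB7 had r = 0.75 (permutation p of 0.00286, adjusted 0.02) and rho = 0.62 (0.0288, adjusted 0.121), and r = 0.55 without saline replicate 6 and stem cells replicate 2. The other 5 pairs that passed by r joined HSPB1, HSPB6, HSPB8 and CRYAB to each other, at r between 0.69 and 0.74. Their r without the 2 farthest animals ran from 0.24 to 0.64, lowest for HSPB6 with HSPB8, a relation that rested on replicate 6 of both groups.

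The covariation depended strongly on stem cells replicate 6. Every one of the 21 coefficients was higher with that animal than without it, and without it the median r was 0.35, 18 of 21 were positive and the range was -0.65 to 0.68. Within the saline group the median r was 0.34 (6 animals). Within the stem cell group it was 0.62 (7 animals), and 0.000478 without replicate 6 (6 animals). Leaving out saline replicate 6 as well, so that both ends of the members' range were gone, left a median of 0.088, a step that lowers a correlation by its construction. Centring each group on its own mean gave a median of 0.49, and 0.23 without stem cells replicate 6.

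A few pairs still had an r over 0.6 without stem cells replicate 6. HSPB1 with HSPB7 was at r = 0.68, HSPB2 with HSPB7 at 0.68 and HSPB8 with CRYAB at 0.65. HSPB3 behaved apart: its r with CRYAB was 0.24 with that animal and -0.65 without it, and its rho was -0.18 and -0.50. CRYAB and HSPB2, neighbours with overlapping spans as said, had r = 0.36 and rho = 0.16 over the 13 animals (adjusted permutation p of 0.25 and 0.693), and r = 0.09 without stem cells replicate 6.

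**Figure D3:**
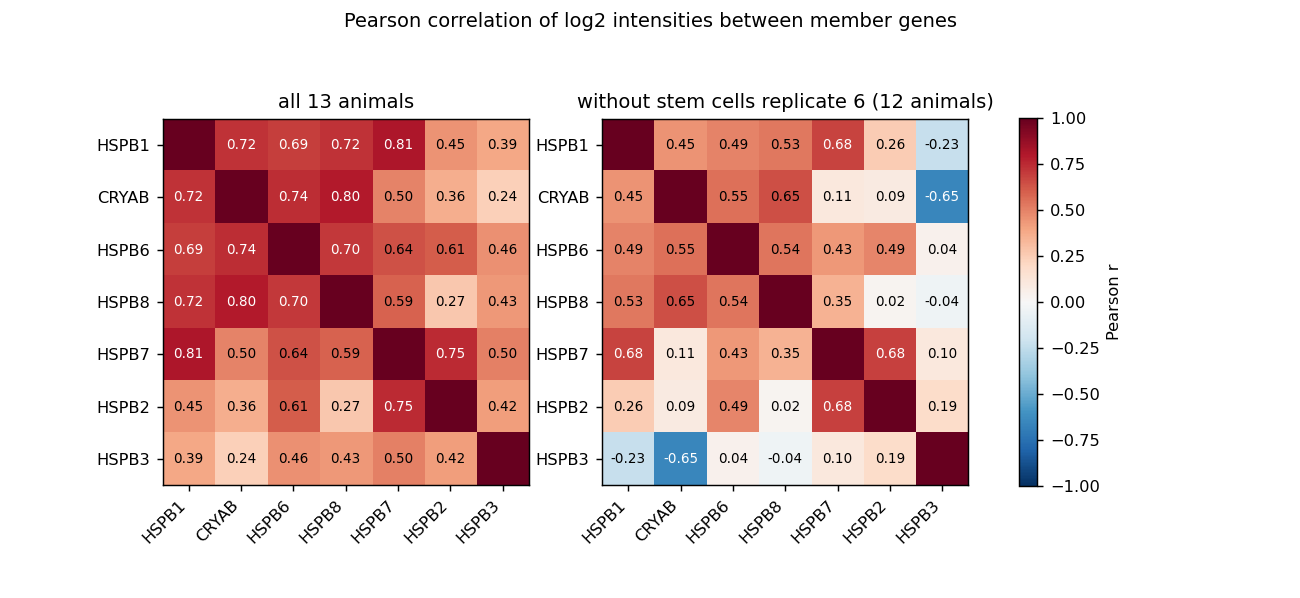
Pearson r between the log2 intensities of each pair of member genes over all 13 animals (left) and without stem cells replicate 6 (right, 12 animals); the colour bar gives r and the diagonal is each gene with itself. All 21 pairs are positive on the left, and the HSPB3 row falls to between -0.65 and 0.19 on the right.

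Set against every probe set tested, the members ranked high in likeness to each other, less so without that animal. For HSPB6, 1.65% of all probe sets tested had an r as high as its median r of 0.66 with the other 6 members. For HSPB8 it was 1.80%, for HSPB1 2.87%, for CRYAB 3.90%, for HSPB7 6.65%, for HSPB3 7.63% and for HSPB2 15.4%. After centring the groups and leaving out stem cells replicate 6, these shares were 11.3% for HSPB6, 10.6% for HSPB8, 23.1% for HSPB1 and 32.2% for CRYAB. They were 20.2% for HSPB7, 41.9% for HSPB3 and 34.1% for HSPB2.

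Partners and clients of the family were compared next, with 4 of 21 relations passing by Pearson's r and 3 by Spearman's rho. BAG3, the partner of HSPB8, varied widely between animals, from 7.24 in saline replicate 3 to 12.22 in saline replicate 5. Its means were 10.52 ± 1.79 (SD, n = 6) in saline and 10.28 ± 0.92 (SD, n = 7) in stem cell animals (difference -0.24 ± 0.66, SE, limma adjusted p of 0.916). Of the members CRYAB followed BAG3 most closely, with r = 0.72 and rho = 0.78 (adjusted permutation p of 0.0395 and 0.0206 over 21 relations with BAG3, HSF1 and DES). That relation kept r = 0.72 without the 2 animals farthest from the CRYAB median and 0.70 without stem cells replicate 6. HSPB8 itself had r = 0.60 and rho = 0.65 with BAG3 (adjusted permutation p of 0.0734 and 0.0804), and r = 0.44 without the 2 animals farthest from its median. HSPB6 had much the same relation with BAG3, at r = 0.61 and rho = 0.66 (adjusted permutation p of 0.0734 and 0.0804). Without the 2 animals farthest from the HSPB6 median, r was 0.46. The remaining members had r between 0.02 and 0.44 with BAG3 and did not pass.

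DES, which encodes the intermediate filament desmin, was at 13.33 ± 0.43 (SD, n = 6) in saline and 13.04 ± 0.60 (SD, n = 7) in stem cell animals, a difference of -0.29 ± 0.26 (SE, limma adjusted p of 0.689). HSPB7 tracked DES with r = 0.86 and rho = 0.77 (adjusted permutation p of 0.0022 and 0.0206), r = 0.68 without the 2 farthest animals and 0.89 without stem cells replicate 6. Within the saline group r was 0.72 and within the stem cell group 0.90. HSPB7, DES and the 3' to 5' ratio all had an extreme value in stem cells replicate 2, and the part of RNA integrity in the relation was not tested. FLNC, filamin C, had no probe set with that symbol in the annotation used here.

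HSF1, the transcription factor that switches on heat shock genes, was at 5.05 ± 0.19 (SD, n = 6) in saline and 4.73 ± 0.23 (SD, n = 7) in stem cell animals. Its difference was -0.31 ± 0.14 (SE), with a limma p of 0.0429 unadjusted and 0.458 adjusted. HSPB2 followed it with r = 0.86 and rho = 0.84 (adjusted permutation p of 0.0022 and 0.0143), r = 0.71 without saline replicate 6 and stem cells replicate 2, and 0.79 and 0.93 within saline and stem cells. HSPB7 had r = 0.75 and rho = 0.48 with HSF1 (adjusted permutation p of 0.0188 and 0.221), and r = 0.47 without the 2 farthest animals. The remaining members had r between 0.30 and 0.64 with HSF1 and did not pass. HSF1 was dim, between 4.35 and 5.41 over the 13 arrays. Stem cells replicate 2 had the lowest value of HSF1, HSPB2 and HSPB7 and the highest 3' to 5' ratio. The part of RNA integrity in these relations was not tested.

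**Figure D4:**
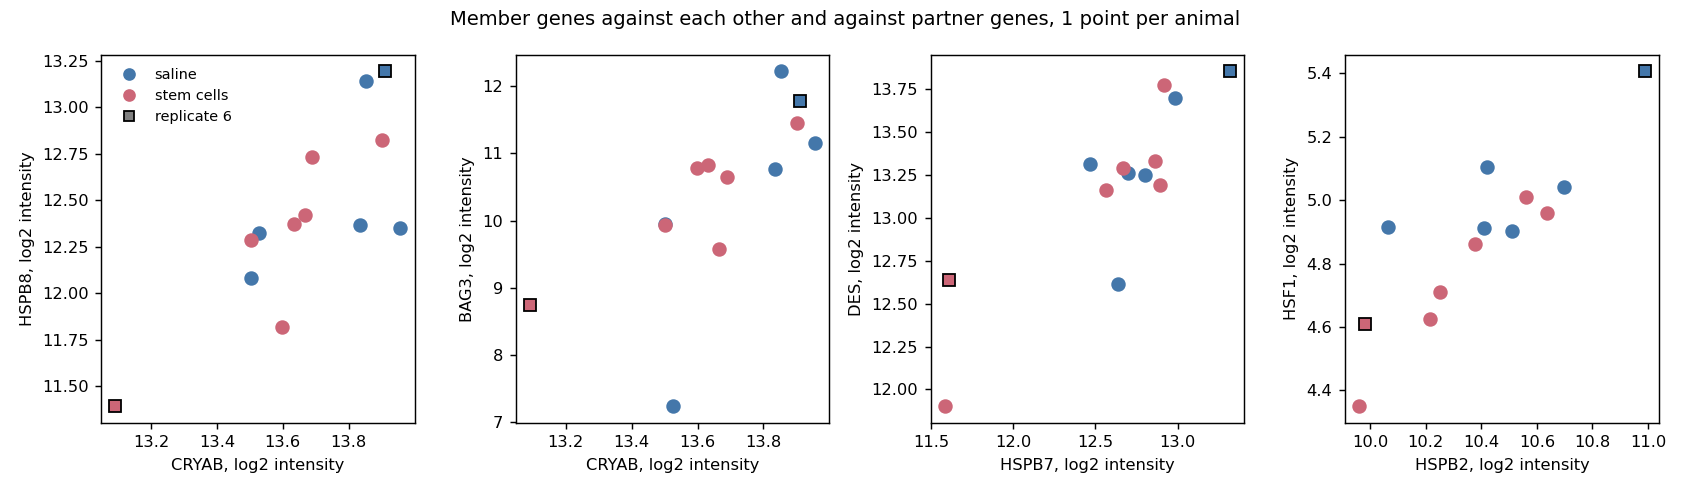
Log2 intensities of HSPB8 and BAG3 against CRYAB, of DES against HSPB7 and of HSF1 against HSPB2, with 1 point per animal, coloured by group, and squares for replicate 6 of each group. HSPB7 with DES has r = 0.86 over the 13 animals and r = 0.89 over the 12 other than stem cells replicate 6.

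Other chaperones had a median difference nearer 0, a contrast that was not tested. In 5 lists of 75 chaperone and cochaperone genes, 56 were tested, 38 had a negative difference and the median was -0.05. Over all genes tested, 59.4% had a negative difference. At an unadjusted p under 0.05 (limma) 6 were lower and 1 higher, 10.7% lower beside 8.95% of all genes, and 0 passed after adjustment. Without stem cells replicate 6, 3 were lower and 0 higher and the median was -0.07, beside -0.18 for the members.

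Of 11 tested members of the HSP70 family, the ATP-driven chaperones that refold clients, 6 were negative and 0 had an unadjusted p under 0.05, with a median of -0.04. The smallest p belonged to HSPA6, a dim stress-inducible member at -0.25 ± 0.27 (SE), and HSPH1, a nucleotide exchange factor, at -0.39 ± 0.46. Of 17 J-domain proteins, which activate HSP70, 13 were negative, with DNAJC5, a chaperone of secretory vesicles, at -0.53 ± 0.19 (SE) and DNAJB14 at 0.46 ± 0.19. Among 12 genes of the HSP90 family and its cochaperones 9 were negative, with the cochaperone p23, encoded by PTGES3, at -0.33 ± 0.14 and HSP90AB1 at 0.19 ± 0.10. The 8 chaperonins, ring-shaped folding chambers, were split with 4 negative, HSPE1 at -0.35 ± 0.16 and CCT2 at 0.19 ± 0.10.

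The list of BAG partners and heat shock factors had the most negative median of the 5, at -0.26 over 8 genes, and -0.12 without stem cells replicate 6. In it 3 genes were lower at an unadjusted p under 0.05 (limma), 2 without that animal, and 0 passed after adjustment. They were HSF1 (above), HSBP1, a small protein that binds HSF1, at -0.61 ± 0.18 (SE, limma adjusted p of 0.393), and STUB1, the ubiquitin ligase that works with HSP70, at -0.55 ± 0.22 (0.427). HSBP1 was at -0.50 and STUB1 at -0.51 without stem cells replicate 6. Among 7 genes of desmin and the Z-disc, which small heat shock proteins bind, 3 were negative and 0 had an unadjusted p under 0.05.

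For each member the 3 most similar genes were taken by Pearson r over the 13 arrays after centring each group on its mean, and TNFRSF12A was the only gene among them for more than 1 member. They had the highest r of all tested probe sets with a symbol, so a high r follows from the choice. The r without stem cells replicate 6 uses 12 of the same 13 arrays and is no separate check. HSPB8 was most like HSP70.2 (r = 0.91, and 0.92 without stem cells replicate 6), a pig gene for which the RefSeq table gives HSPA1A and HSPA1B, the inducible HSP70 genes, as synonyms. Then came TNFRSF12A, a receptor of the TNF family (0.89), and SERPINB2, a protease inhibitor (0.88). HSP70.2 was at 10.85 ± 0.98 (SD, n = 6) in saline and 10.58 ± 0.53 (SD, n = 7) in stem cell animals, and being filed under that symbol it was not counted in the HSP70 list. CRYAB was most like ARF6, a small GTPase of membrane traffic (0.91), TIMP2, an inhibitor of matrix proteases (0.89), and TNFRSF12A (0.87), at 0.83, 0.78 and 0.73 without stem cells replicate 6.

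HSPB6 was most like another chaperone, HSPA2 of the HSP70 family (0.94, and 0.91 without stem cells replicate 6). HSPA2 had its lowest values, 4.81 and 4.96, in stem cells replicate 6 and saline replicate 3, the lowest animals for HSPB6 within their groups. Unlike HSPB6, it had nearly equal group means, 6.99 ± 1.28 (SD, n = 6) in saline and 6.90 ± 0.99 (SD, n = 7) in stem cell animals. LOC396787 (0.86) and PCDH11X (0.86) followed, both dim at under 4 on every array. HSPB1 was most like MESDC1 (0.95), the zinc transporter gene SLC39A1 (0.92) and CDKN1A, which encodes the cell cycle inhibitor p21 (0.92). These were at 0.92, 0.85 and 0.86 without stem cells replicate 6.

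HSPB7 was most like FXR2, an RNA-binding protein gene (0.94), ENG, a TGF-beta coreceptor of endothelium (0.93), and TINAGL1 (0.90). HSPB2 was most like SMARCD3, a subunit of a chromatin remodelling complex (0.90), PLP2 (0.88) and a dim probe set of ACTN1 (0.88). HSPB3 was most like BSCL2 (0.89), which was dim, and the immediate early genes FOS (0.87) and IER5 (0.87), which respond to stress within minutes. FOS was at 9.27 in stem cells replicate 6 and between 11.48 and 13.93 in the other 12 animals, and without that animal its r with HSPB3 was 0.70.

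Marker lists of the cell types in the biopsy, and the 3' to 5' ratio, were set against the members. Of these 42 relations 7 passed by Pearson's r and 0 by Spearman's rho. For the counts of markers below, 59.4% of all genes tested had a negative difference. At an unadjusted p under 0.05 (limma) 8.95% of all genes were lower and 2.91% higher. The mean of 7 smooth muscle and pericyte markers, cells that also contain HSPB1 and HSPB6, was 9.97 ± 0.36 (SD, n = 6, range 9.58 to 10.51) in saline and 9.54 ± 0.52 (SD, n = 7, range 8.70 to 10.07) in stem cell animals. It was lowest in stem cells replicate 6. Of these markers 2 were lower at an unadjusted p under 0.05, the contractile genes CNN1 and MYL9 at -1.54 and -0.88 (limma adjusted p of 0.458 and 0.393), while ACTA2 and RGS5 were at 0.08 and 0.05. Without stem cells replicate 6 only MYL9 was, and the median difference of the list was -0.04 in place of -0.20. This mean had r = 0.83 and rho = 0.65 with HSPB1 and r = 0.79 and rho = 0.75 with CRYAB. The adjusted permutation p over 42 relations was 0.0188 for each r and 0.152 and 0.0839 for the rho. It had r = 0.65 and rho = 0.55 with HSPB6 (adjusted permutation p of 0.0715 and 0.276). Leaving out stem cells replicate 6 gave r of 0.70, 0.62 and 0.45, and leaving out the 2 animals farthest from each member's median 0.42, 0.50 and 0.30. HSPB7 had r = 0.78 and rho = 0.47 with it (adjusted permutation p of 0.0383 and 0.328), and r = 0.12 without the 2 farthest animals, stem cells replicates 2 and 6, on which the relation rested.

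The mean of 8 endothelial markers was 8.21 ± 0.22 (SD, n = 6, range 8.01 to 8.45) in saline and 7.97 ± 0.35 (SD, n = 7, range 7.46 to 8.34) in stem cell animals, with 1 marker lower and 1 higher at an unadjusted p under 0.05, and 0 of either without stem cells replicate 6. Its r with HSPB1 was 0.84 and its rho 0.61 (adjusted permutation p of 0.0188 and 0.177), with r = 0.54 without the 2 farthest animals. HSPB7 had r = 0.75 and rho = 0.26 with it (adjusted permutation p of 0.0438 and 0.703), a relation that rested on stem cells replicates 2 and 6, with r = 0.01 without them. CRYAB had r = 0.70 and rho = 0.72 (adjusted permutation p of 0.0494 and 0.0839), and r = 0.46 without its 2 farthest animals.

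The cardiomyocyte mean and CRYAB had r = -0.76 and rho = -0.74 (adjusted permutation p of 0.0217 and 0.0839). That r was -0.54 without the 2 farthest animals and -0.62 without stem cells replicate 6, the array where their mean was highest at 13.80. This relation rested on TNNI1, whose SD over the arrays was 2.77 against 0.08 to 0.30 for the other 10 markers. The mean of those 10 had r = -0.35 and rho = -0.03 with CRYAB (adjusted permutation p of 0.464 and 0.946), and TNNI1 alone r = -0.69 and rho = -0.71 (0.0433 and 0.0623 over 7 relations). With the 10 markers in place of the 11, 4 of the 42 relations passed by r, and those of HSPB7 and CRYAB with the endothelial mean no longer did (adjusted permutation p of 0.0526 and 0.0576). Means of 9 fibroblast and matrix markers had r between -0.37 and 0.26 with the members. They were 9.09 ± 0.57 (SD, n = 6, range 8.52 to 10.06) in saline and 9.24 ± 0.57 (SD, n = 7, range 8.61 to 10.02) in stem cell animals. Of the matrix markers 1, COL3A1, was higher at an unadjusted p under 0.05. Without stem cells replicate 6 there were 2, COL3A1 and COL1A2. Both were dim, near the filter of 3.36, with means of 3.48 and 3.52 in saline and 3.83 each in stem cell animals. The mean of 7 macrophage and leukocyte markers was 6.40 ± 0.31 (SD, n = 6, range 6.09 to 6.90) in saline and 6.01 ± 0.40 (SD, n = 7, range 5.48 to 6.54) in stem cell animals, with r between -0.15 and 0.60. Of these markers 6 were negative and 2 lower at an unadjusted p under 0.05, 1 without stem cells replicate 6, with a median difference of -0.35. With the cardiomyocyte minus fibroblast mean as a covariate, the HSPB6 and HSPB1 differences were -0.84 and -0.54, with TNNI1 in the mean or left out. The part of the vascular cell markers in the HSPB1 and HSPB6 differences was not tested.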

How the data were processed

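The deposited values are linear intensities per probe set from GCRMA, a tool named in the submitters' processing notes. It subtracts background, normalizes the arrays to each other and summarises probes, so a shift shared by most genes cannot be seen. No source used here gives its version. The 124 control probe sets took no part. Deposited intensities were put on the log2 scale, and probe sets with a mean over all arrays above the 40th percentile (3.36) were tested, 14399 of 23999, among them all 9 member probe sets. Symbols came from the platform annotation: 10069 probe sets had 1 symbol, 198 several and 13732 none, which leaves them unnamed here. Of these, 9961 matched the Sscrofa11.1 gene table by gene ID and 0 symbols changed.

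Groups were compared with limma 3.58.1 in R 4.3.3 (lmFit, eBayes with an intensity trend), and p-values were adjusted by Benjamini and Hochberg over all probe sets. An unadjusted p under 0.05 from the same fit is given as a description. The fit was tested on simulated data. Correlations have two-sided permutation p-values from 100000 resamples, with adjusted values by Benjamini and Hochberg in families of 21 member pairs, 21 partner relations and 42 relations with array measures. The members and lists were chosen with earlier results of these data known. Named genes were all members, BAG3, HSF1, DES and FLNC, the 2 smallest p per chaperone list and the 3 genes most like each member. MYH7, TNNI1, CNN1, MYL9, ACTA2, RGS5, COL3A1 and COL1A2 were named after their values were seen. Replicate numbers 1 to 6 occur in both groups and are not said to pair animals. No batch is given in the labels. Alternatives were other filters, normalizations, variance models, covariates, a replicate block, array weights, a floor and leaving out each animal. Correlations without stem cells replicate 6 and the cardiomyocyte mean without TNNI1 were added after seeing the data.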

Additional observations from a re-analysis of the deposited data

Results flagged for a closer look

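In 32 groups of values checked for a single distant animal, 3 had one. Chance alone gives about 1 in 20 for independent groups. These groups shared animals, and the member mean holds the HSPB6 value, so the count cannot be set against that rate. The HSPB6 intensity of stem cells replicate 6, 9.14, lay far under the next lowest of its group, 9.93, in a group that reached 10.47. The mean of the 7 member genes in the same animal was 10.81, with the next lowest of the group at 11.51 and the highest at 11.90. The second CRYAB probe set had a value of 8.26 in stem cells replicate 7, with the next highest of its group at 5.35 and the lowest at 3.26, while the main CRYAB probe set was at 13.67 in that animal, inside its group's range.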

How the results depend on the processing

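The limma adjusted p stayed above 0.05 for the member probe sets under each alternative run (the second CRYAB probe set did not pass the filter at the 60th percentile), between 0.268 and 0.684 for HSPB1 and between 0.268 and 0.679 for HSPB6 under those planned. HSPB6 kept an unadjusted p under 0.05 in 26 of 26 settings and HSPB1 in 25 of 26, all but array weights, where its p was 0.0508 and the count of members lower was 1 in place of 2. The median member difference lay between -0.41 and -0.181 with each animal left out in turn, at -0.0864 without saline replicate 6 and stem cells replicate 6 (chosen after seeing the data), and at -0.19 with array weights. With 1 animal left out, the number of probe sets called over the whole table was 0 or 1 (1 without saline replicate 5, no member). The HSPB3 difference turned to 0.0681 without stem cells replicate 6 and 0.15 without both animals. The second HSPB6 probe set turned to 0.0815 without saline replicate 6, 0.0132 without stem cells replicate 6, 0.282 without both (-0.347 at the other end, without saline replicate 3) and 0.0708 with array weights. The count of other chaperones lower at an unadjusted p, 6, was 2 to 6 with 1 animal left out (2 without saline replicate 6, 3 without stem cells replicates 3 or 6) and 1 without both. Its alternatives were added after seeing the data. The median pairwise r of the members, 0.589, was 0.452 with a gene's probe sets averaged, 0.49 with groups centred, 0.346 to 0.674 with 1 animal left out and 0.0878 without both animals. The causes were not tested.

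The replicate block, with stem cells replicate 7 on a level of its own and so without weight, gave -0.88 for HSPB6 and -0.60 for HSPB1 (limma adjusted p of 0.515 for each), a median member difference of -0.34 and a count of 3 other chaperones. Deviations of same-numbered animals correlated at -0.27 to 0.24, and 0 of 6 saline animals correlated best with their own number, so the numbers were not taken as pairs.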
